A study of Homo sapiens with 6 samples.

Results

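The TRAPP complexes are multisubunit tethering factors of the secretory pathway, and 10 of their subunit genes (TRAPPC1, TRAPPC2L, TRAPPC3, TRAPPC4, TRAPPC6B, TRAPPC8, TRAPPC9, TRAPPC10, TRAPPC12 and TRAPPC13) were followed here at the level of individual splicing events. The members were all events of these genes with a mean of at least 10 junction reads per library over the 6 libraries, where a junction read is one that crosses an exon junction and so tells the included from the skipped form. This rule kept 107 of the 116 events listed for these genes and 66395 of the 78223 events read over all 11652 genes. Within these genes the events were thus chosen by the read totals of both groups together. The genes themselves were put together with earlier results of these data in view. The events with the fewest reads inside it were a TRAPPC9 exon, with a mean of 15.2 reads, and a TRAPPC4 exon of 13 nt, with 15.7, and those nearest outside were a TRAPPC4 alternative 5′ splice site, with 9.83, and a TRAPPC2L retained intron, with 8.17.

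A common core of small subunits, among them TRAPPC1, TRAPPC2L, TRAPPC3, TRAPPC4 and TRAPPC6B, carries the activity of the complex towards Rab GTPases, the molecular switches that label membranes. TRAPPC9 and TRAPPC10 join this core in the TRAPPII complex, which acts at the Golgi, and TRAPPC8, TRAPPC12 and TRAPPC13 join it in TRAPPIII, which acts in transport from the endoplasmic reticulum to the Golgi and in autophagy. SAM68, encoded by KHDRBS1, is a nuclear RNA-binding protein that regulates alternative splicing and binds short motifs rich in A and U.

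RNA was taken from NCI-H1975, a human lung adenocarcinoma cell line, 48 h after transfection with 2 µg per well of either a PCDNA3.1-SAM68 plasmid, which drives overexpression, or the PCDNA3.1 plasmid without the insert (control). Each group held 3 libraries, which the study describes as biological replicates. The transfection was transient and whole wells were sequenced, so that a change in all cells and a larger change in a fraction of them cannot be told apart. The deposited tables list the 3 libraries of each group in a fixed order without replicate numbers, and they are called first, second and last listed below.

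Each library held 16951876 to 19737729 junction reads in the table of skipped exons, and the member events together held 18997 to 22601 reads per library. KHDRBS1 was at 311, 328 and 316 reads per 1000000 (rpm) in the control libraries and at 1230, 1260 and 1276 in the SAM68 libraries, a log2 difference of 1.98 ± 0.05 (SE) with a limma adjusted p of 1.1e-21. Reads of the plasmid and of the cell's own gene cannot be told apart. Of 10 epithelial and lung markers, KRT7, KRT8, KRT18 and NAPSA had an event to read, and their summed level ran from 732 to 995 rpm in control and from 761 to 770 in SAM68 libraries. KRT7 was lower in every SAM68 library (1.26 to 2.20 against 3.02 to 4.48 rpm) and KRT18 higher (521 to 530 against 471 to 492), and KRT8 was at 520 rpm in the first listed control and at 229 to 253 in the other libraries. NAPSA was near 0, with 0 reads in 2 SAM68 libraries. Of 8 markers of immune, endothelial and stromal cells CD68 alone had an event, at 92.0 to 102 rpm in control and 98.0 to 104 in SAM68 libraries. A gene without an alternative event is not in these tables, so that the absence of a marker says nothing about its expression.

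The first question was whether any TRAPP event changed its inclusion. Inclusion is given as PSI, the percentage of transcripts that carry the segment after the reads are divided by the effective length of each form, and a change was called at a quasi-binomial adjusted p under 0.05 with at least 10 points of difference. An exon of TRAPPC9 was the 1 called event of 107, and it was lower in the SAM68 libraries. Over all events 0.0271% were called, and 0.0126% of skipped exons. The member count is 0.935%, but it rests on this single exon. At an unadjusted p under 0.05 there were 4 member events (3.74%) against 8.46% of all events. The groups did not overlap in 7 member events (6.54%) against 6.13% of all, and the change reached 10 points in 4 (3.74%) against 7.17%. Of the 107 events 52 were lower and 55 higher in SAM68. The median absolute change was 1.01 points against 1.24 over all events.

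**Figure D1:**
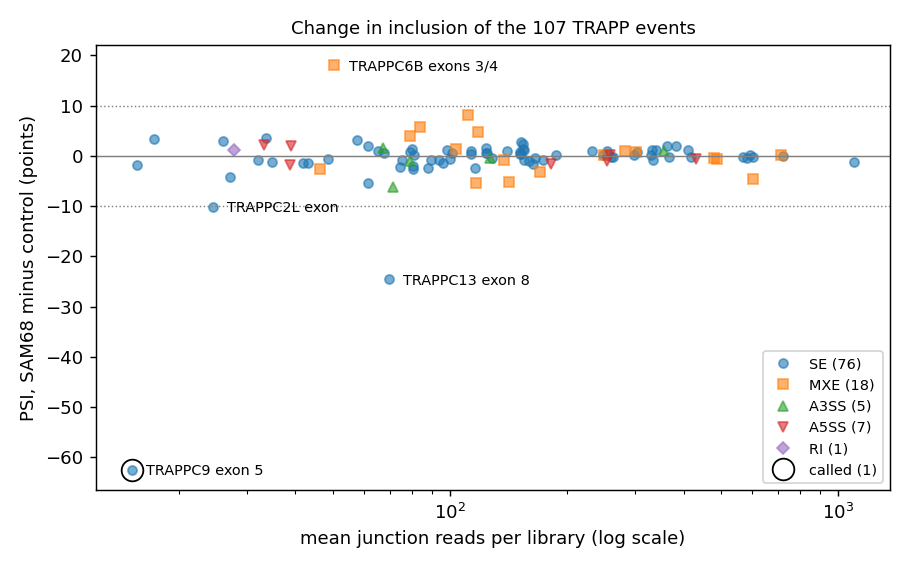
Change in PSI (SAM68 minus control, in points) of each of the 107 TRAPP events against its mean junction reads per library (log scale), with the event type as the symbol and dotted lines at 10 points either way. Nearly all events lie between the lines, and the called TRAPPC9 exon is also the event with the fewest reads.

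TRAPPC9 encodes a TRAPPII subunit known from inherited intellectual disability and microcephaly. Its called event is exon 5 of the canonical transcript, a coding exon of 27 nt at chr8:140426615-140426641 (GRCh38, minus strand), whose length keeps the reading frame and which 2 annotated transcripts contain. Among control libraries 16, 14 and 9 reads joined the exon to its neighbours, and 5, 8 and 6 skipped it. In the SAM68 libraries 0, 0 and 0 reads included it, while 13, 11 and 9 skipped it. All 3 control libraries thus had more reads for the exon than for its skipping, and none of the SAM68 libraries gave a read for it.

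PSI of TRAPPC9 exon 5 was 72.7%, 59.3% and 55.6% in the control libraries, or 62.5% ± 9.03 (SD, n = 3), and 0% in every SAM68 library. The exact 95% intervals reached down to 48.3%, 36.3% and 28.4% in the control libraries and up to 21.5%, 24.9% and 29.7% in the SAM68 libraries. These intervals cover counting error only. With 0 of 33 reads over the 3 SAM68 libraries, a share of inclusion reads as high as 9.09% remains possible. The drop of 62.5 points had an adjusted p of 0.0143 in the quasi-binomial test, with its dispersion moderated towards that of other events of its type. An exact two-sided permutation test gave p = 0.1, the smallest that 3 against 3 libraries allow.

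The call on TRAPPC9 exon 5 rests on few reads and on the dispersion borrowed from other events. With the event's own dispersion the adjusted p was 0.585 and with limma on the log odds 0.108. Leaving out any 1 of the 6 libraries kept the change between 57.4 and 66.0 points lower, with adjusted p from 0.0622 (without the second listed control) to 0.239 (without the first listed SAM68 library), so that no such fit called it. At a minimum of 20 reads the event was not tested.

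**Figure D2:**
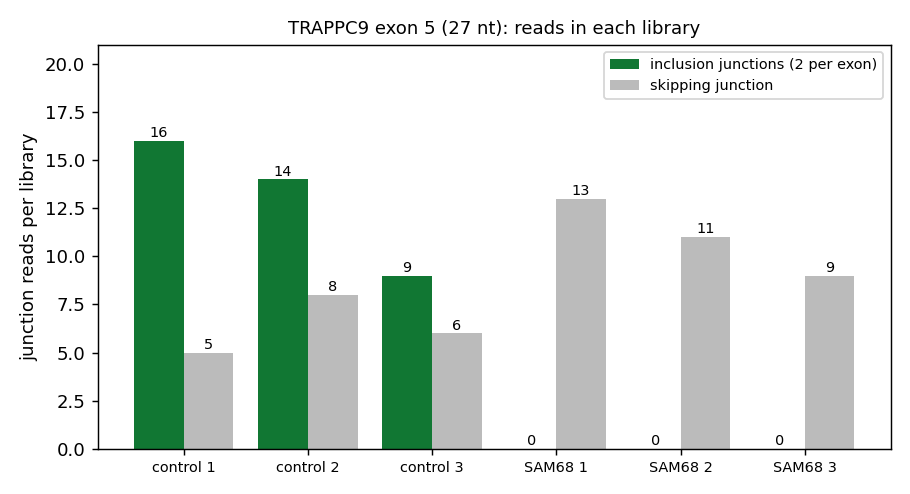
Junction reads for TRAPPC9 exon 5 in each of the 6 libraries, in listed order, with reads on the inclusion junctions in green and on the skipping junction in grey. Inclusion reads number 16, 14 and 9 in control and 0 in each SAM68 library, while both groups have skipping reads.

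The other TRAPPC9 exons were included throughout. Exon 4 of 129 nt, next to exon 5, had 19, 26 and 22 inclusion reads in control and 47, 20 and 27 in SAM68 libraries, with 2 skipping reads in the last listed SAM68 library alone. Its PSI was 100% in control and 95.7% ± 7.40 in SAM68 (adjusted p = 0.566, quasi-binomial). Exon 19 of 111 nt had 1 skipping read in all 6 libraries, and exon 9, at 22 to 50 inclusion reads per library, likewise had 1.

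TRAPPC13, a subunit of TRAPPIII, held the next largest change, in another very short coding exon. Exon 8 of its canonical transcript measures 18 nt (chr5:65655636-65655653, plus strand) and is contained in 3 annotated transcripts. It is shown with 60 nt of intron on either side, the exon in capitals, since its change was the largest among events with at least 20 reads.
TRAPPC13 exon 8: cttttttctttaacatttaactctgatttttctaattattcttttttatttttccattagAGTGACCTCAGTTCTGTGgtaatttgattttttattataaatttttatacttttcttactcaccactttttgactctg

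TRAPPC13 exon 8 was included by 72, 64 and 28 reads and skipped by 20, 29 and 21 in control. Among the SAM68 libraries 4, 36 and 56 reads included it and 20, 36 and 32 skipped it. PSI was 76.1%, 66.1% and 54.1% in control and 15.0%, 46.9% and 60.7% in SAM68 libraries. The first listed SAM68 library was far below the others, and the last lay within the control range, so that the groups overlapped. The means were 65.4% ± 11.0 and 40.9% ± 23.4, a difference of -24.5 points (95% interval -39.6 to -9.48). The adjusted p was 0.524 and the unadjusted p 0.0202 (quasi-binomial), and the exact permutation p was 0.2. The difference ranged from -34.5 to -11.6 points when single libraries were left out, smallest without the first listed SAM68 library.

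The motifs TAAA and TTAA, DNA forms of the sequences that SAM68 is known to bind, were counted on the transcript strand in the 100 nt before and after each exon, a TTAAA run counting for both. TRAPPC13 exon 8 had 6 matches before it, a number reached by 3.14% of all 38788 distinct tested exons, and 2 after it. TRAPPC6B exon 4 and a TRAPPC8 exon of 132 nt also had 6 before them. TRAPPC6B exon 3 had 12 after it, which no other of the exons reached (0.00258%, this exon alone). None of these exons was called as a skipped exon event. TRAPPC9 exon 5 had 3 before and 3 after, reached by 21.7% and 20.9% of exons. At least 1 match stood in the 100 nt before 54.4% of the 57 distinct TRAPP exons and 55.2% of all exons, and in the 100 nt after 71.9% and 54.2%. These are counts of letters and do not show that a site is bound.

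Short exons are uncommon in these tables. Of the 38788 exons 363 (0.936%) were 27 nt or shorter, and 3 TRAPP exons were: TRAPPC9 exon 5, TRAPPC13 exon 8 and the TRAPPC4 exon of 13 nt (chr11:119021874-119021886). The TRAPPC4 exon had 18, 9 and 6 inclusion reads in control and 19, 15 and 26 in SAM68 libraries, with 1 skipping read, in the first listed SAM68 library. Its PSI was 100% in control and 98.2% ± 3.14 in SAM68 (adjusted p = 0.616, quasi-binomial). It ends at the same position as the TRAPPC4 exon of 127 nt (chr11:119021760-119021886). Reads on the junction after it thus do not tell these exons apart, and this PSI does not give the use of the 13 nt form. Among the 410 skipped exon events of 27 nt or shorter 1 was called (0.244%), which was the TRAPPC9 exon. Lengths that are a multiple of 3 made up 31.6% of TRAPP exons and 40.5% of all.

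TRAPPC13 and TRAPPC12, both TRAPPIII subunits, each have a pair of 3′ splice sites 3 nt apart, whose choice adds or removes 3 nt and keeps the reading frame. They are shown from 40 nt before these 3 nt, which are in capitals.
TRAPPC13 tandem 3′ splice sites: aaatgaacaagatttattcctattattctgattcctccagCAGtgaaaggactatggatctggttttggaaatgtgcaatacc
TRAPPC12 tandem 3′ splice sites: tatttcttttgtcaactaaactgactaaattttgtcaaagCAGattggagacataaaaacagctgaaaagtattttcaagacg

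In TRAPPC13 (chr5:65664234-65664236, before exon 12) both sites were used. The upstream site took 53.9%, 46.8% and 27.9% in control and 51.7%, 37.9% and 20.7% in SAM68 libraries. The groups overlapped, and the difference of -6.10 points had a 95% interval of -21.8 to 9.64 (adjusted p = 0.811, quasi-binomial). In TRAPPC12 (chr2:3477692-3477694, before exon 10) the upstream site had 0 reads in every control library and 1, 2 and 0 in SAM68 libraries, beside 55 to 87 reads per library for the downstream site. The 3 nt between the sites have the same letters in both genes, and the upstream site was shared in one gene and almost unused in the other.

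Among core subunits TRAPPC6B, 1 of a pair of related genes for the same position in the core and linked to a neurodevelopmental disorder, had a skipped exon, an exon pair and a pair of 5′ splice sites with a mean PSI between 10% and 90%. Its exon 4 of 84 nt (chr14:39154211-39154294, minus strand) keeps the frame and exon 3 of 118 nt (chr14:39158285-39158402) does not. They are shown with 20 nt on either side and the exons in capitals, since they make up the event with the next largest change.
TRAPPC6B exon 3: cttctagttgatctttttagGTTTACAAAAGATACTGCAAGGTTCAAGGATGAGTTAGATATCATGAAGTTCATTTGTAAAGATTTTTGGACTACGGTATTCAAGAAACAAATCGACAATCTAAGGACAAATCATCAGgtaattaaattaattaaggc
TRAPPC6B exon 4: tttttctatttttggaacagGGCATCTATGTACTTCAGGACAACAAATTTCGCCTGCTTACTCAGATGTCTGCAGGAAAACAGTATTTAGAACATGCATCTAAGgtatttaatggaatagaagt

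As a mutually exclusive pair, in which PSI is the share of the exon nearer the 5′ end, exon 3 stood at 48.0%, 54.0% and 62.6% in control and 67.3%, 75.1% and 76.6% in SAM68 libraries. The 3 SAM68 libraries were all above the controls. The difference was 18.1 points (95% interval 2.13 to 34.1), with an unadjusted p of 0.0278, an adjusted p of 0.483 (quasi-binomial) and an exact permutation p of 0.1. Tested as single exons, exon 3 was included at 99.0% in control and 100% in SAM68. Exon 4 was at 84.2%, 86.6% and 85.7% in control and 80.4%, 69.5% and 90.7% in SAM68 libraries, a difference of -5.31 points (95% interval -17.5 to 6.91, adjusted p = 0.566). That difference was 0.0526 points without the second listed SAM68 library and -10.6 without the last. Exon 4 alone therefore varied among libraries without a called change, and exon 3 was almost always present. As most transcripts thus carry both exons, the value of the pair is mostly a ratio of reads on neighbouring junctions.

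The 5′ splice site of TRAPPC6B exon 2 lies beside a further site 33 nt downstream, which lengthens the exon by the letters in capitals (chr14:39159450-39159482).
TRAPPC6B alternative 5′ splice sites: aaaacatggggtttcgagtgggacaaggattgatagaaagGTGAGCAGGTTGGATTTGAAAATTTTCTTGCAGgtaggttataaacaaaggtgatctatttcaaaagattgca

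The longer form made up 14.3%, 17.3% and 7.21% in control and 29.4%, 16.1% and 0% in SAM68 libraries. The SAM68 libraries lay on both sides of the controls, and the difference was 2.23 points (95% interval -12.4 to 16.9, adjusted p = 0.871, quasi-binomial). This event, the TRAPPC13 splice site pair, TRAPPC10 exon 8 and the short TRAPPC4 exon were added to the described events after their values were seen.

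**Figure D3:**
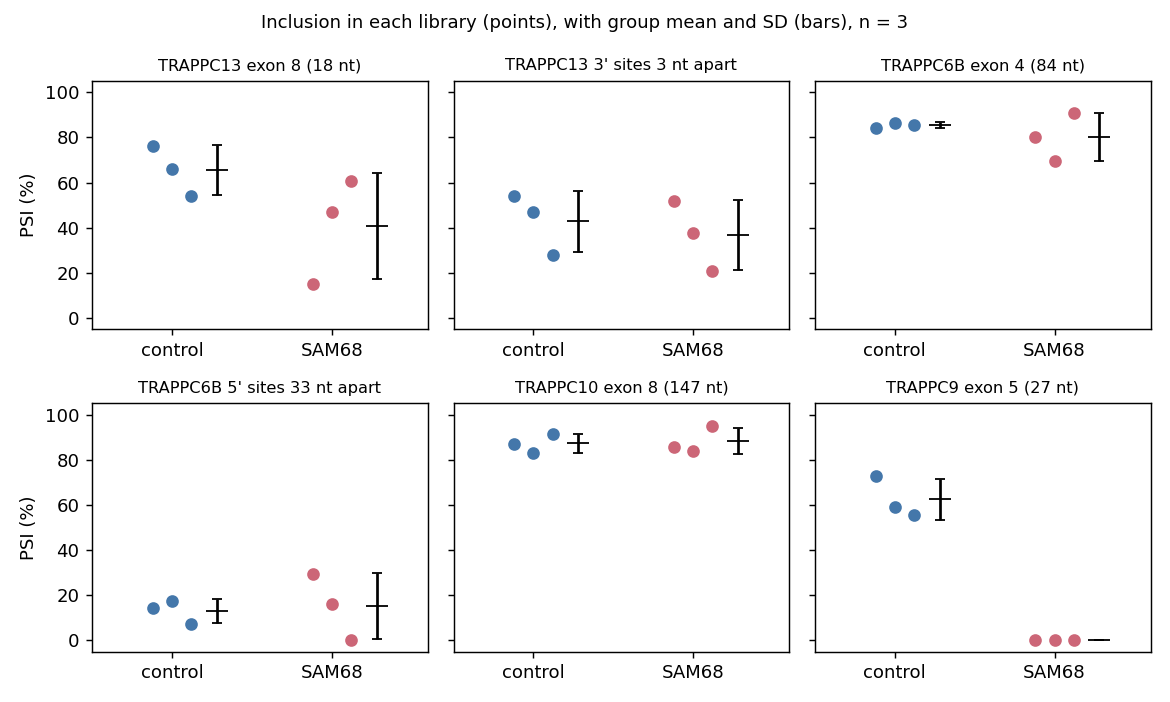
PSI in percent of 6 alternative TRAPP segments in the 3 control and 3 SAM68 libraries (points, in listed order), with the group mean and SD beside them. The groups overlap in all panels but the last, where TRAPPC9 exon 5 is at 55.6% to 72.7% in control and at 0% in SAM68 libraries.

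None of the events of the remaining core subunits was called. TRAPPC1, a small core subunit, had the deepest event of the family, exon 2 of 71 nt (chr17:7931506-7931576), read 1102 times per library on average. Skipping reads numbered 15, 25 and 26 in control and 35, 26 and 26 in SAM68 libraries. PSI was 97.1% ± 0.77 in control and 95.8% ± 0.47 in SAM68, and the groups did not overlap. The difference of -1.30 points had an adjusted p of 0.566 (quasi-binomial, 95% interval -2.70 to 0.11), so that a decrease of 3 points or more lies outside the interval.

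TRAPPC3, the core subunit that carries a bound fatty acid, had 13 events and none called. Its exon 3 (100 nt, chr1:36139720-36139819) was skipped by 1 read in all 6 libraries against 477 to 693 inclusion reads per library. Paired with exon 4 as mutually exclusive, exon 3 stood at 57.9%, 54.9% and 56.6% in control and 51.7%, 53.6% and 50.2% in SAM68 libraries, without overlap. The difference was -4.61 points (95% interval -9.32 to 0.11) with an adjusted p of 0.584 (quasi-binomial). As both exons are included in nearly all reads of the single exon events, this value is a ratio of reads on neighbouring junctions, and the same holds for the other pairs of neighbouring exons given below. Exon 3 also has an upstream 3′ splice site, 24 nt before the usual one (chr1:36139820-36139843), shown because it was a rarely used site read at high depth.
TRAPPC3 alternative 3′ splice sites: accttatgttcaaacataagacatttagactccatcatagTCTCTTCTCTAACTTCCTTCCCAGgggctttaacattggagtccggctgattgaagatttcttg

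The upstream TRAPPC3 site made up 1.23% in control and 2.23% in SAM68, with an unadjusted p of 0.138 in the quasi-binomial test.

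TRAPPC4, another core subunit that contacts the Rab substrate, had 21 events, the most of the family, and none called. Exon 2 (175 nt, chr11:119019143-119019317) had 519 to 644 inclusion reads per library and 4 skipping reads, all in the first listed SAM68 library. Exon 3 (104 nt, chr11:119020150-119020253) was at 94.1%, 95.4% and 94.7% in control and 95.6%, 95.6% and 100% in SAM68 libraries. These did not overlap, but the difference of 2.31 points had an interval of -1.99 to 6.61 and an adjusted p of 0.566 (quasi-binomial). It was 0.84 points without the last listed SAM68 library and 3.06 without the second. The other 2 TRAPPC4 events without overlap count exon 2 in its usual and a longer form, and were at 97.1% to 97.6% in control and 97.7% to 100% in SAM68 libraries. In all 3 of them the last listed SAM68 library gave no skipping read.

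TRAPPC2L, a core subunit related to TRAPPC2, had 4 tested events. An exon of 99 nt (chr16:88859345-88859443), carried by 1 annotated transcript and not by the canonical one, was at 82.5%, 100% and 100% in control and 87.2%, 100% and 65.0% in SAM68 libraries. Its difference of -10.1 points had an interval of -28.5 to 8.36 and an adjusted p of 0.658 (quasi-binomial), over a mean of 24.5 reads. It ranged from -18.1 points without the second listed SAM68 library to -0.53 without the last. The 178 nt exon that follows (chr16:88859573-88859750) was at 94.2% ± 1.85 in control and 96.3% ± 1.65 in SAM68 (adjusted p = 0.566), and the 406 nt form that spans both segments at 94.6% ± 1.82 and 96.5% ± 1.67. The 178 nt and 406 nt events had the same numbers of skipping reads in every library and so are not separate observations. The 406 nt form starts where the 99 nt exon starts and ends where the 178 nt exon ends. Reads on these shared sites can count for more than 1 event. Each PSI is thus set against skipping and does not show which of these forms prevails.

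Of the larger TRAPPII and TRAPPIII subunits, TRAPPC10 had 15 events. Its exon 5 (196 nt, chr21:44055698-44055893) had no skipping read in control and 4, 0 and 1 in SAM68 libraries, beside 96 to 140 inclusion reads. PSI was 100% and 97.5% ± 2.73, with an unadjusted p of 0.0440 and an adjusted p of 0.566 (quasi-binomial). The difference of -2.48 points was -1.02 without the first listed SAM68 library and -3.72 without the second. Exon 8 of 147 nt, which keeps the frame, was an alternative exon in both groups, at 87.1%, 83.1% and 91.7% in control and 85.6%, 84.1% and 94.8% in SAM68 libraries, a difference of 0.89 points (95% interval -7.02 to 8.80). The deepest event, exon 19 (127 nt, chr21:44091923-44092049), was at 100% in control and 99.2% ± 0.70 in SAM68. In mutually exclusive pairs exon 19 against exon 20 was at 57.9% ± 8.19 and 54.7% ± 6.10, and exon 20 against exon 21 at 89.9% ± 7.53 and 95.6% ± 5.79, with adjusted p of 0.859 and 0.758 (quasi-binomial). The difference of the latter pair, 5.68 points, was 1.40 without the first listed control and 8.96 without the last listed SAM68 library.

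TRAPPC8, the subunit that helps bring TRAPPIII to membranes, had 10 events and none called. Exon 27 (146 nt, chr18:31839312-31839457) had 1 skipping read in 6 libraries against 91 to 157 inclusion reads each. Exon 21 (148 nt, chr18:31855660-31855807) had 0, 1 and 1 skipping reads in control and 0 in each SAM68 library. In the pair of exon 27 and exon 28 the former was at 61.7% ± 3.72 in control and 66.4% ± 7.96 in SAM68 (adjusted p = 0.833, quasi-binomial). The difference of 4.72 points was 0.93 without the first listed SAM68 library and 8.86 without the second.

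TRAPPC12, a TRAPPIII subunit linked to a childhood encephalopathy, had 11 events. Exon 2, its large first coding exon of 1051 nt (chr2:3387620-3388670), was at 99.4% ± 0.55 in control and 99.6% ± 0.69 in SAM68. The 104 nt form of exon 10 that begins at the upstream tandem site (chr2:3477692-3477795) was skipped by 3 reads in the last listed control library and by none elsewhere. Its inclusion reads, 40 to 83 per library, lie almost wholly on the junction to the next exon, which the usual 101 nt form shares, since the upstream site itself had at most 2 reads in a library. Its mean was 96.9% ± 5.41 in control and 100% in SAM68 (adjusted p = 0.566, quasi-binomial). Exon 9 against exon 10 was at 45.4% ± 4.13 and 46.7% ± 6.85. In TRAPPC13, exon 2 (69 nt, chr5:65635301-65635369) had 1 skipping read in all libraries and exon 10 against exon 11 was at 70.4% ± 7.81 and 64.9% ± 5.01 (adjusted p = 0.835, quasi-binomial). That difference of -5.44 points was -1.33 without the first listed control and -9.10 without the last.

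Over the family, 74 of the 107 events had a mean PSI over 90%, 14 under 10% and 19 between. Of those 19, 12 were mutually exclusive pairs, 5 skipped exons, 1 an alternative 3′ and 1 an alternative 5′ splice site. A pair of neighbouring exons that are both included can also fall in this range, as the TRAPPC3 pair did. The 65 skipped exon events over 90% all changed by less than 5 points, at most by 4.27. The 107 events describe 88 distinct segments, since several rows share an exon and its reads.

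The second question was whether the TRAPP genes changed in level. As the tables hold junction reads of alternative events alone, each gene was represented by its event with the most reads, in rpm of the same sum over genes. None of the 10 genes was called by limma at an adjusted p under 0.05 and a log2 difference of at least 1, and none had an unadjusted p under 0.05. Over 10146 genes 0.0493% were called, and 12.1% had an unadjusted p under 0.05. The log2 differences (SAM68 minus control, on the log2 scale of rpm plus 0.5) ran from -0.25 to 0.43 with a median of -0.036, and that of all genes was -0.035. There were 7 genes lower and 3 higher.

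TRAPPC9, the gene of the called exon, was at 8.45, 6.05 and 4.01 rpm in control and 7.10, 8.26 and 9.17 in SAM68 libraries. Its log2 difference was 0.43 ± 0.29 (SE), with an adjusted p of 0.580 (limma) and a 95% interval of -0.13 to 0.99. It was 0.17 without the last listed control library and 0.67 without the first. The groups overlapped, and these values come from exon 19, far from exon 5.

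TRAPPC12 had the lowest log2 difference of the 10 genes and was at 34.5, 31.0 and 38.6 in control and 29.2, 30.5 and 27.5 rpm in SAM68 libraries. The SAM68 libraries were all below the controls. The log2 difference of -0.25 ± 0.13 had an adjusted p of 0.474 (limma). TRAPPC13 was at 22.8, 29.0 and 27.6 in control and 28.9, 27.9 and 33.0 in SAM68 libraries, a difference of 0.18 ± 0.14. Its groups overlapped. The TRAPPC13 difference was 0.08 without the first listed control library and -0.14 with all events summed.

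Among core subunits TRAPPC1 was at 195, 192 and 189 in control and 179, 173 and 195 in SAM68 libraries (log2 difference -0.08 ± 0.07), and TRAPPC3 at 119, 94.7 and 107 and at 107, 98.7 and 87.7 (-0.13 ± 0.09). The interval for TRAPPC1 ran from -0.21 to 0.06 and that for TRAPPC3 from -0.31 to 0.05. TRAPPC4, TRAPPC2L and TRAPPC6B differed by -0.03 ± 0.08, 0.07 ± 0.11 and -0.04 ± 0.22, and TRAPPC8 and TRAPPC10 by -0.07 ± 0.18 and -0.02 ± 0.16. In all of these genes the libraries of the groups overlapped.

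Between genes, levels were compared as junction reads per 1000 nt of effective length per 1000000 reads. The order was TRAPPC1 (mean 948, range over 6 libraries 877 to 988), TRAPPC3 (448, 384 to 522), TRAPPC4 (381, 365 to 394) and TRAPPC2L (257, 222 to 291). It went on with TRAPPC13 (142, 115 to 167), TRAPPC12 (123, 106 to 149), TRAPPC10 (115, 88.9 to 150), TRAPPC8 (84.2, 64.2 to 112), TRAPPC6B (45.1, 36.4 to 55.0) and TRAPPC9 (30.0, 16.7 to 38.2). The ranges of TRAPPC3 and TRAPPC4, of TRAPPC13, TRAPPC12 and TRAPPC10, of TRAPPC8 with both TRAPPC12 and TRAPPC10, and of TRAPPC6B and TRAPPC9 overlapped. Core subunits other than TRAPPC6B stood above all subunits particular to TRAPPII or TRAPPIII in these values, which depend on how many reads the chosen event collects.

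**Figure D4:**
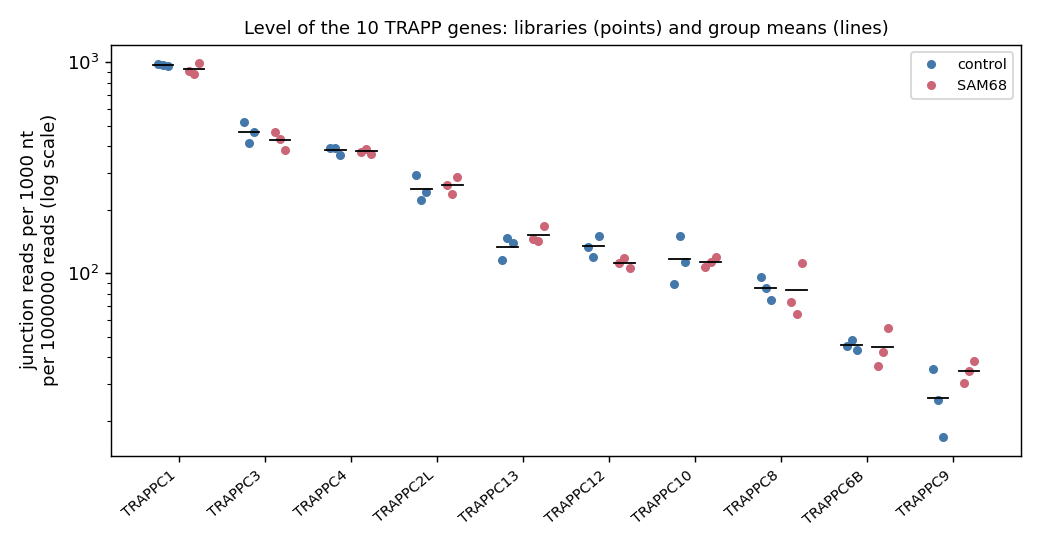
Level of each of the 10 TRAPP genes as junction reads per 1000 nt per 1000000 reads (log scale) in the 3 control and 3 SAM68 libraries (points), with lines at the group means. The SAM68 points of TRAPPC12 lie just below its controls and those of the other 9 genes overlap them, from TRAPPC1 near 948 to TRAPPC9 near 30.0.

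Other subunits and partners of the complex were read from lists. Of the other TRAPP subunits TRAPPC2, TRAPPC6A, TRAPPC11 and C7orf43 (TRAPPC14) had tested events. None of their 22 events was called by the quasi-binomial test, with 1 at an unadjusted p under 0.05 and a median absolute change of 2.56 points. The binomial likelihood ratio test on pooled reads, which ignores the spread between libraries, called 1, and 2.04% of all events. TRAPPC6A, described as the paralogue of TRAPPC6B although it passed no call, was at 22.9, 24.7 and 23.4 rpm in control and 19.7, 19.3 and 20.9 in SAM68 libraries, a log2 difference of -0.24 ± 0.15 (adjusted p = 0.570, limma).

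The partners were Rab proteins, COPII coat components, Golgi tethers and SNAREs of transport between the endoplasmic reticulum and the Golgi, of which 25 of 26 had tested events. None of their 223 events was called, 9 (4.04%) had an unadjusted p under 0.05, and the median absolute change was 0.76 points. The pooled likelihood ratio test called 2 of the 223, against 2.04% of all events. In level, none of the 25 genes passed both limits, 5 had an unadjusted p under 0.05 (12.1% of all genes did), and log2 differences ran from -0.38 to 0.33. RAB1A, the Rab protein on which TRAPPIII acts, was the 1 gene with an adjusted p under 0.05 (0.0393, limma, against 0.414% of all genes) and is named for that after its value was seen. It was at 209, 203 and 208 rpm in control and 145, 170 and 180 in SAM68 libraries, without overlap, and its log2 difference of -0.33 ± 0.07 (SE) was under the limit of 1.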

How the data were processed

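RNA from 3 control and 3 SAM68 libraries was sequenced (paired ends), and the authors mapped the reads to GRCh38 with HISAT2 2.1.0 after fastp 0.20.0 (submitters' notes) and tabulated events with rMATS, whose version is not given in the sources used here. The deposited tables, 5 in all, give lists of inclusion and skipping junction counts and effective lengths per event. The authors' own p-values and inclusion differences were not used. The first list was taken as control, as the study's plots order the groups. Of 78336 events 113 alternative 3′ splice site events were left out because separators in their lists could not be resolved.

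PSI, a quasi-binomial test with Pearson dispersion moderated within each event type by limma 3.58.1 (floor 1), and Benjamini-Hochberg adjustment within type were computed in R 4.3.3 over all events, given 10 or more reads per library on average. Gene levels were tested with limma on log2(rpm + 0.5), rpm being reads per 1000000, with a trend. Planned count models were not run here. Both tests were tested on simulated data. Exons were annotated with GENCODE 44, and sequences were read from GRCh38. The counts of any 2 libraries differed by more than sampling noise (chi-square per degree of freedom 3.14 to 6.39), so that none was taken as a copy of another. This does not show that they came from separate cultures.

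For every gene the text names each called event and the events with the most reads, the smallest p, the largest change at 20 reads or more, and the most reads among those at 10% to 90%. Of other genes the rule names KHDRBS1 and partners that pass a call. RAB1A and TRAPPC6A, which pass none, were added after their values were seen. The members, lists and rules were chosen with earlier results of these data known.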

Additional observations from a re-analysis of the deposited data

How the results depend on the processing

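The count of 1 called TRAPP event became 3 when pooled counts were compared by a likelihood ratio test, which called 2.04% of all events and added TRAPPC13 exon 8 (-24.5 points, adjusted p = 0.00944) and the TRAPPC6B exon 3 and 4 pair (18.1 points, adjusted p = 0.0154). It became 0 with the event's own dispersion, with limma on the log odds, at a minimum of 20 reads, where TRAPPC9 exon 5 is not tested, and without any single library (0 to 0). It stayed 1 with no read minimum, no length normalization, rows of a segment summed, all types adjusted together, limits of 5 points or none, and 1 dispersion for each type, an alternative chosen after seeing the data. No TRAPP gene was called under any alternative run, including no limit on the fold change.

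Of 434 values of the named events under an alternative 8 changed sign, all in events that were not called. Leaving out single libraries gave -7.58 to 0.498 points for TRAPPC10 exon 19 against 20, -2.61 to 3.85 for TRAPPC12 exon 9 against 10, -2.68 to 0.697 for TRAPPC4 exon 2 against 3 and -10.6 to 0.0526 for TRAPPC6B exon 4. Summing rows that share TRAPPC4 exon 2 gave 0.154 points. Of 100 values of gene levels 11 changed sign. Leaving out single libraries gave log2 differences of -0.0087 to 0.1805 for TRAPPC2L, -0.1993 to 0.0847 for TRAPPC6B, -0.294 to 0.0948 for TRAPPC8 and -0.2046 to 0.1685 for TRAPPC10. Summing all events gave 0.0177 for TRAPPC1 and -0.1415 for TRAPPC13, and median-of-ratios size factors gave 0.0054 for TRAPPC4 and 0.0071 for TRAPPC10. The causes of these changes were not tested.

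No paired analysis was possible because the lists of libraries in the tables carry no replicate numbers. The planned fits with edgeR and DESeq2 were not run. Depth limits the shallow events most. TRAPPC9 exon 5 had a mean of 15.2 reads per library. Even in the first listed control, which had more reads than that, the exact interval of its PSI spans 48.3% to 90.3%.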
